A study of Mus musculus with 6 samples.

Results

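The facilitative sugar transporters of the SLC2 family were described in mouse fat-derived cells early in beige adipocyte differentiation that carried an acetylation-mimicking or a deacetylation-mimicking form of PPARγ2. The members were taken by gene symbol and were *Slc2a1*, *Slc2a3*, *Slc2a4*, *Slc2a5*, *Slc2a6*, *Slc2a8*, *Slc2a9*, *Slc2a10*, *Slc2a12* and *Slc2a13*, which made 10 of the 56884 genes in the tables. A TPM above 0 was found in every library for 7 of them, and 5 of the 10 were high enough to be tested. In K382Q-overexpressing cells, *Slc2a4* was 2.3-fold and *Slc2a1* 1.84-fold higher in mean TPM than in K382R-overexpressing cells, and *Slc2a8* was 1.4-fold higher. *Slc2a9* and *Slc2a10* did not pass the test. No member tested was called lower, against 36.9% of all genes tested. The K382Q libraries of *Slc2a3*, *Slc2a6*, *Slc2a10* and *Slc2a13* all lay under their K382R libraries, and of these genes only *Slc2a10* was high enough to be tested.

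An immortalized line made from stromal vascular fraction (SVF) cells of mouse subcutaneous white fat had received a retroviral vector (pMXs-Puro) for HA-tagged PPARγ2, the adipocyte master regulator, and was selected with puromycin. A lysine was replaced by glutamine (K382Q), which mimics the acetylated residue, or by arginine (K382R), which cannot be acetylated, and the comparison asked how the genes expressed differ between these forms. RNA was sequenced on day 2 of beige adipocyte differentiation, with 3 replicates of each mutant. All 6 cultures had the same induction medium, with IBMX at 500 µM, indomethacin at 125 µM, dexamethasone at 2 µg/mL, insulin at 5 µg/mL, T3 at 1 nM and rosiglitazone, a PPARγ agonist, at 0.5 µM. Every value for *Slc2a4* and *Slc2a1* is therefore from cells under insulin and in a high-glucose medium. No cells with wild-type PPARγ2 or an empty vector and no cells without insulin were analysed here, so a difference has no zero point and may lie with either mutant. The labels call the replicates biological without naming separate transductions, and p-values measure the spread between these cultures.

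Glucose enters cells down its gradient through SLC2 proteins. GLUT1 (*Slc2a1*) sits at the surface of most cells, carries basal uptake and is a classical target of the hypoxia-inducible factor HIF-1. GLUT4 (*Slc2a4*) is kept in intracellular vesicles of fat and muscle cells and moves to the surface when insulin acts, so that its mRNA sets the pool but not the amount at the surface. GLUT3 (*Slc2a3*) has high affinity for glucose, is typical of neurons and is induced by hypoxia in many cell types. The other members carry glucose, fructose, urate, dehydroascorbate or *myo*-inositol, and some act on inner membranes.

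The mRNA of the regulator itself was unequal between the mutants, and its protein was not analysed here. By Western blot, the paper describes overexpression of the mutant proteins as largely similar, and their levels as almost equal in its reporter assay. *Pparg* had a TPM of 1333, 1164 and 1104 in K382Q and of 1590, 1632 and 1612 in K382R libraries, a log2 fold change of -0.43 (SE 0.0638, limma adjusted p = 0.000977). The tables do not separate vector from endogenous transcripts, and the part of this difference in the results below was not tested. Aligned sequence amounted to 5.95 to 8.15 Gb per library. The adipocyte markers *Fabp4*, *Cd36*, *Lpl*, *Cidec*, *Plin1*, *Adipoq* and *Retn* were all above the filter on low values and *Lep* was at 0 in every library. The summed TPM of these 8 genes was 53109 to 56975 in K382Q and 43555 to 44842 in K382R libraries, most of it *Fabp4* (47893 and 37837 on average). At a limma adjusted p under 0.05, 4 of them were called higher in K382Q cells and 2 lower (11.1% and 36.9% of all genes were), the lower ones being *Lpl* and *Adipoq*, the adiponectin gene, which was 148 ± 1.2 against 360 ± 20.2 TPM (SD, n = 3) and had a log2 fold change of -1.28 (limma adjusted p = 7.63e-07). Under scaling by median ratios *Lpl* lost its call, under quantile normalization *Fabp4* and *Cidec* did, and with no filter on low values *Fabp4* did. Defining markers of muscle (*Myod1*, *Myog*, *Myh1*), the other main site of GLUT4, were at 0 in all 6 libraries, as were those of neurons (*Syt1*, *Rbfox3*). *Actn3* of the muscle list (0.0509 to 0.351 TPM) and *Syp* of the neuron list (0.22 to 0.54 TPM) were above 0 in every library. The leukocyte list summed to at most 5.18 TPM, nearly all of it *Cd68*, and the endothelial list to 1.57 to 2.23 TPM in K382Q and 1.69 to 1.82 in K382R libraries, most of it *Pecam1*. The 6 progenitor markers summed to 455 to 503 TPM in K382Q and to 761 to 797 in K382R libraries, nearly all of it *Ly6a*, and *Dpp4* was at 0 in all. Both progenitor markers above the filter were called lower, *Ly6a* with a log2 fold change of -0.72 (limma adjusted p = 1.14e-05) and *Pdgfra* with -0.88 (limma adjusted p = 0.000122), as were 36.9% of all genes. In bulk RNA, fewer cells of a type and less RNA per cell cannot be told apart, and the part of these markers in the transporter results was not tested.

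The sequences that set the hypoxia-responsive *Slc2a1* beside the other called member with an entry in the promoter table are shown first. RefSeq promoter sequences of 300 bases (table build GRCm38.p6) were given for 8 of the 10 members, without *Slc2a3* and *Slc2a4*, and were placed in GRCm39 by exact match. Letters were searched on both strands, and capitals mark the HIF core ACGTG, which the E-box CACGTG contains. The promoter of *Slc2a1* lies at chr4:118965692-118965991 on the plus strand and that of *Slc2a8* at chr2:32872046-32872345 on the minus strand, each printed 5′ to 3′.
Slc2a1: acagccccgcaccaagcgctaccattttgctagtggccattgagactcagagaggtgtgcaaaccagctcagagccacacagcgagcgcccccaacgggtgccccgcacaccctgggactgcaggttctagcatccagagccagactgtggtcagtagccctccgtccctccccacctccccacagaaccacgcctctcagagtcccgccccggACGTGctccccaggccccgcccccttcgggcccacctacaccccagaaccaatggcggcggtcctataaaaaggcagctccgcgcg
Slc2a8: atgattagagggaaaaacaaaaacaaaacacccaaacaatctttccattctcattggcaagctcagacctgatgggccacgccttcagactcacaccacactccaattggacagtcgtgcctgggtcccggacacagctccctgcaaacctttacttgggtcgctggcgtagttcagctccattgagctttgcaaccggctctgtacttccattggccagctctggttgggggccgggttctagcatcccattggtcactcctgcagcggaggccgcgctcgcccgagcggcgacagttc
The *Slc2a1* promoter held 1 HIF core, with its first base at -36 from the start site, and 2 GC boxes (GGGCGG) at -45 and -20. The *Slc2a8* promoter held none of the letters searched. An ACGTG stood in 2 of the 8 member promoters, the second being that of *Slc2a10* at 21 bases after its start, against 19.6% of 32851 promoters of the same length. GC boxes stood in 5 of the 8 against 35.7% of promoters, and the nuclear receptor half-site AGGTCA in 1 of the 8 (*Slc2a9*, at -81 and -56) against 16.3%. The table's start for *Slc2a9* lies 19758 bases inside the gene as the authors' tables draw it, so this window may not be the start in use here. CACGTG stood in none of the 8 and in 7.15% of promoters. A match of letters is not a bound site.

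For *Slc2a4*, the sequences shown are the qPCR primers designed for its mRNA, since they mark where in the gene that assay reads.
forward: acccctcattccccctgtgt
reverse: accctcctgcagaccccttc
In GRCm39 the forward primer matched chr11:69834027-69834046 on the minus strand, which is the gene's strand, and the reverse primer chr11:69833886-69833905 on the plus strand. Both lie in the untranslated part of exon 11, the last of 11 in the canonical GENCODE transcript. They span 161 bases and matched transcripts of no other gene exactly. The TPM given here covers the whole gene and not this stretch.

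Levels were compared per transcript length as TPM, and the means had the same order in both mutants. *Slc2a1* was highest, followed by *Slc2a4*, *Slc2a8*, *Slc2a9* and *Slc2a10*, and the 3 libraries of each of these genes did not overlap those of the next one in either mutant. Among all genes tested, the mean level of *Slc2a1* stood at the 93.2 percentile in K382Q and 85.6 in K382R cells, that of *Slc2a4* at 76.6 and 55.1, and that of *Slc2a8* at 56.6 and 46.9. Below them, *Slc2a13*, *Slc2a6* and *Slc2a3* followed without overlap in K382R cells, while in K382Q cells neighbours in this lower range overlapped. *Slc2a5* and *Slc2a12* were at 0 in at least 1 library of each mutant. Of the family members outside the 10, *Slc2a7* was at 0 in all libraries and *Slc2a2*, the liver and beta-cell form, did not exceed 0.0514 TPM.

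**Figure D1:**
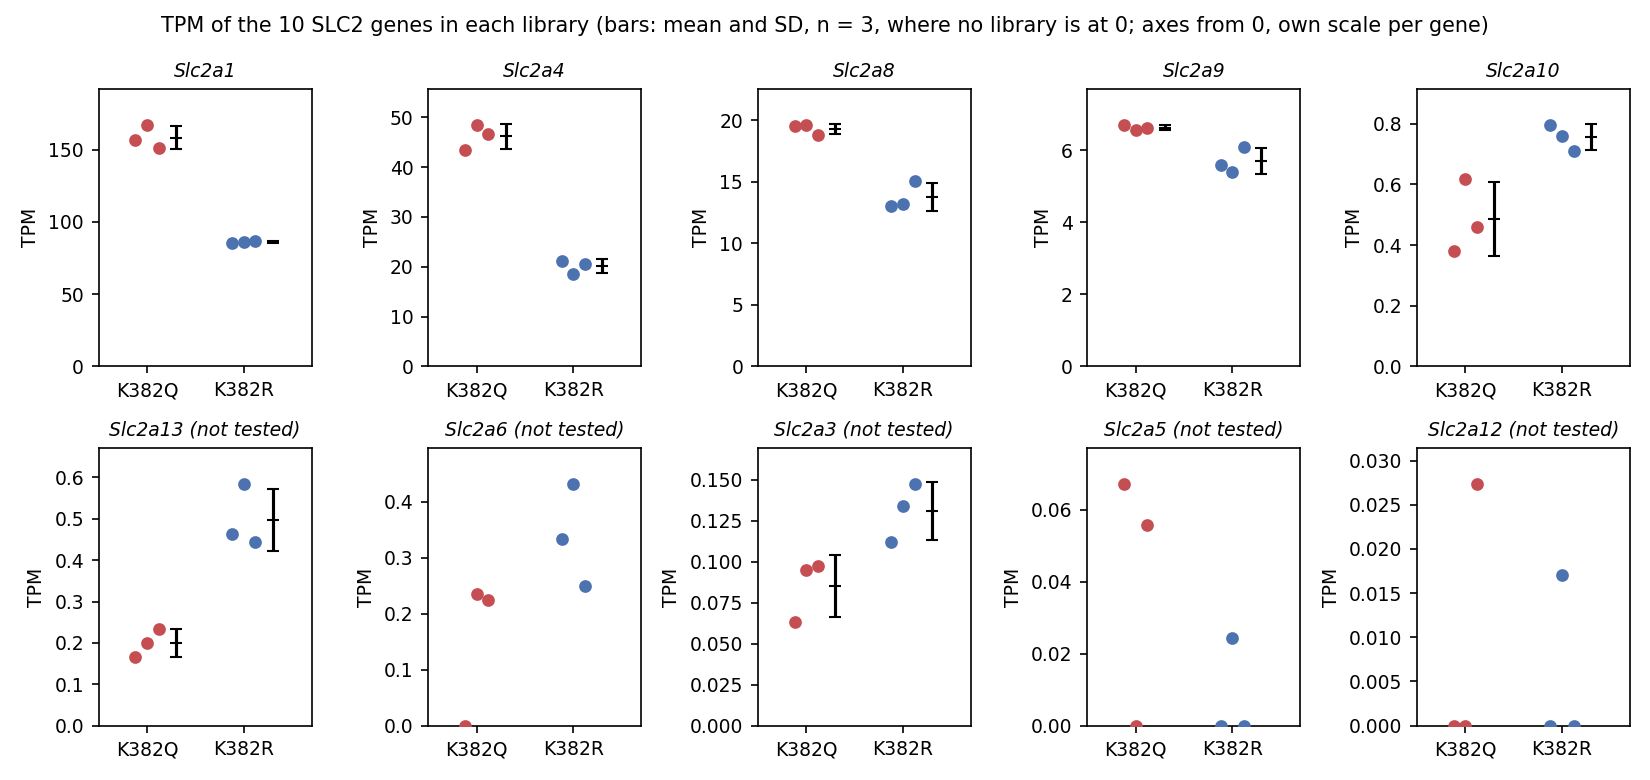
TPM of each SLC2 gene in the 6 libraries (points), with mean and SD of 3 libraries (bars) for genes above 0 in all, each panel with its own linear axis from 0. *Slc2a1* lies between 151 and 167 in K382Q and between 85.2 and 86.5 in K382R libraries, and the genes of the lower row stay under 0.6 TPM.

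A gene was called at a limma adjusted p-value under 0.05 and a DEG if its fold change was also over 2. Of the 5 members tested, 3 were called higher in K382Q cells, while 11.1% of the 15426 genes tested were, and 0 were called lower, against 36.9%. At an unadjusted p under 0.05, limma gave 4 members higher and 0 lower, against 13.1% and 41.1% of all genes tested. *Slc2a4* was the 1 member that was a DEG, and 1.27% of genes were higher DEGs. The median log2 fold change of the 5 was 0.47, and that of all genes tested was -0.14. This median of all genes moved to 0.0032 when libraries were scaled by median ratios, which also turned the calls over all genes from 1717 higher and 5698 lower into 3057 higher and 3153 lower. The directions of the 5 members did not turn under any scaling tried.

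*Slc2a4*, the insulin-responsive form (ENSMUSG00000018566.15, chr11:69833365-69839014, minus strand, GRCm39), had a TPM of 43.5, 48.4 and 46.7 in K382Q libraries and of 21.2, 18.5 and 20.6 in K382R libraries. The lowest K382Q library was thus above the highest K382R library by a wide margin, and the spread within each mutant was small. Mean TPM was 46.2 ± 2.5 (SD, n = 3) against 20.1 ± 1.44. The log2 fold change was 1.18 (SE 0.0652, 95% interval 1.03 to 1.33, limma adjusted p = 6.93e-06), and 99.2% of the genes tested had a lower one. Coverage of the gene, as deposited, was 80.2 to 110 in K382Q and 37.7 to 45.7 in K382R libraries. Such coverage can understate read depth per base for a gene with several transcripts.

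*Slc2a1*, the basal and hypoxia-responsive form (ENSMUSG00000028645.12, chr4:118965908-118995180, plus strand), had a TPM of 157, 167 and 151 in K382Q and of 85.2, 86.4 and 86.5 in K382R libraries. All K382Q libraries were above all K382R libraries, which lay close together. Means were 158 ± 8.33 and 86.1 ± 0.728 (SD, n = 3). The log2 fold change was 0.87 (SE 0.0414, 95% interval 0.78 to 0.97, limma adjusted p = 3.8e-06), and 98.0% of genes had a lower one. Deposited coverage was 342 to 471 and 202 to 252. The lowly expressed *Gm12868* lies on the opposite strand over 4235 bases of the gene, at a mean TPM of 1.98 in K382Q and 0.897 in K382R cells.

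*Slc2a3*, the other hypoxia-responsive form (ENSMUSG00000003153.11, chr6:122704768-122778599, minus strand), was barely detected. Its TPM was 0.0631, 0.0947 and 0.0972 in K382Q and 0.112, 0.134 and 0.147 in K382R libraries, at a deposited coverage of at most 0.0371. K382Q libraries were the lower ones and the mutants did not overlap, opposite in direction to *Slc2a1*. The difference on log2(TPM + 0.5) was -0.11, and without a filter on low values limma gave an adjusted p of 0.229. With a pseudocount of 0.1 the difference was -0.32, with 1 it was -0.06 and with FPKM -0.04, so its size depended on the scale. The tables also place *Gm4482* on the same strand over 742 bases of *Slc2a3*, at a mean TPM of 8.34 in K382Q and 10.1 in K382R cells, so reads could be split between them and the level of *Slc2a3* is uncertain.

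*Slc2a8* encodes GLUT8, an intracellular sugar transporter (ENSMUSG00000026791.15, chr2:32863002-32872095, minus strand). It had a TPM of 19.5, 19.6 and 18.8 in K382Q and of 13.0, 13.2 and 15.1 in K382R libraries. The mutants did not overlap, and K382R replicate 3 was nearest to the other mutant. The log2 fold change was 0.47 (SE 0.0686, 95% interval 0.31 to 0.63, limma adjusted p = 0.000856), with means of 19.3 ± 0.437 and 13.8 ± 1.17 (SD, n = 3).

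*Slc2a9* encodes GLUT9, known mainly as a urate transporter (ENSMUSG00000005107.14, chr5:38506616-38660486, minus strand). Its TPM was 6.70, 6.57 and 6.63 in K382Q and 5.60, 5.40 and 6.10 in K382R libraries. All K382Q libraries were higher, by less than in the genes above. The log2 fold change of 0.20 (SE 0.0794, 95% interval 0.02 to 0.39) missed the threshold with a limma adjusted p of 0.0666. It was called in 4 of 16 other settings, among them scaling by median ratios, and adjusted p ranged from 0.00919 to 0.182 over all of them.

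*Slc2a10* encodes GLUT10, which carries dehydroascorbate and glucose and is linked to arterial tortuosity (ENSMUSG00000027661.5, chr2:165345707-165361837, plus strand). It had a TPM of 0.382, 0.619 and 0.458 in K382Q and of 0.795, 0.761 and 0.709 in K382R libraries. The K382R libraries were the higher ones, and the gene passed the filter of 0.5 TPM through them and K382Q replicate 2. The log2 fold change was -0.35 (SE 0.182, 95% interval -0.78 to 0.07, limma adjusted p = 0.149).

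**Figure D2:**
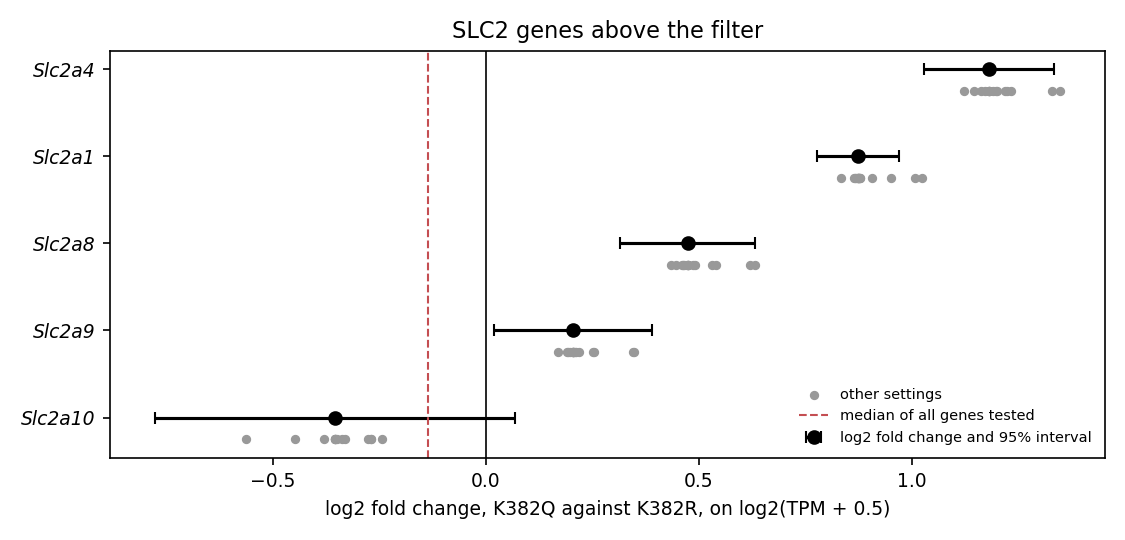
Log2 fold change of K382Q against K382R cells on log2(TPM + 0.5) for the 5 SLC2 genes above the filter (black: estimate and 95% interval; grey: other settings; dashed: median of all genes, -0.14). The interval of *Slc2a4* is 1.03 to 1.33, that of *Slc2a1* is 0.78 to 0.97, and that of *Slc2a10* includes 0.

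Besides *Slc2a3*, the 4 other members under the filter were *Slc2a13*, *Slc2a6*, *Slc2a5* and *Slc2a12*. *Slc2a13* encodes the proton-coupled *myo*-inositol transporter HMIT (ENSMUSG00000036298.11, chr15:91151899-91457464, minus strand) and had a TPM of 0.165, 0.2 and 0.234 in K382Q and of 0.463, 0.583 and 0.445 in K382R libraries. All K382Q libraries were lower, with a difference of -0.51 on log2(TPM + 0.5), and limma without the filter gave an adjusted p of 0.0152. The size of this difference depended on the scale: it was -0.99 with a pseudocount of 0.1, -0.32 with 1 and -0.25 with FPKM. *Slc2a6*, which encodes the lysosomal GLUT6 (ENSMUSG00000036067.13, chr2:26911375-26918010, minus strand), was listed at 0, 0.235 and 0.224 TPM in K382Q and at 0.334, 0.431 and 0.25 in K382R libraries. Its K382Q libraries were again the lower ones, and without the filter the limma adjusted p was 0.234. *Slc2a5*, the fructose transporter gene (ENSMUSG00000028976.11, chr4:150203740-150228626, plus strand), was listed at 0.067, 0 and 0.0557 TPM in K382Q and at 0, 0.0243 and 0 in K382R libraries. *Slc2a12* encodes GLUT12, a glucose transporter found in insulin-sensitive tissues (ENSMUSG00000037490.6, chr10:22520910-22580184, plus strand), and was above 0 in 1 library of each mutant, at 0.0273 and 0.0171 TPM. The libraries of *Slc2a5* and *Slc2a12* overlapped between mutants. Non-overlap was seen in 5 of 5 members tested, against 57.0% of all genes tested. It was also seen in 3 of 5 members not tested, for which no share over genes under the filter was computed.

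The insulin-responsive and the basal form were also set against each other within each library. The TPM ratio of *Slc2a4* to *Slc2a1* was 0.277, 0.290 and 0.310 in K382Q and 0.249, 0.214 and 0.239 in K382R libraries. All 3 K382Q libraries were above all K382R libraries. On log2(TPM + 0.5) the ratio averaged -1.77 ± 0.0797 (SD, n = 3) and -2.07 ± 0.11, a difference of 0.31, and the two-sided exact permutation test gave p = 0.1, the smallest that 3 against 3 libraries allow (0.1 after Benjamini-Hochberg adjustment over 3 ratios). The ratios of *Slc2a4* and of *Slc2a1* to *Slc2a3* differed by 1.29 and 0.98, each with exact p = 0.1, but with *Slc2a3* under the pseudocount they mostly follow their numerators.

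The TPM summed over the 10 members was 227, 243 and 224 in K382Q and 127, 126 and 130 in K382R libraries. The sum was 1.82-fold higher in K382Q cells, with no overlap, and at least 98.4% of it came from *Slc2a1*, *Slc2a4*, *Slc2a8* and *Slc2a9* in every library. *Slc2a4* made up 19.1%, 19.9% and 20.9% of the sum in K382Q and 16.7%, 14.7% and 15.9% in K382R libraries, a difference of 4.19 percentage points (exact permutation p = 0.1, adjusted over 3 shares 0.15). Its share was higher in every K382Q library. *Slc2a1* held 68.4% ± 0.937 and 67.6% ± 1.18 (SD, n = 3), which overlapped (difference 0.813 points, exact permutation p = 0.3). Leaving out K382R replicate 3 gave 0.323 points and K382Q replicate 1 gave 0.499, whereas leaving out K382Q replicate 3 gave 1.35 points and K382R replicate 2 gave 1.47, with exact p of 0.2 to 0.6. *Slc2a8* held 8.36% ± 0.271 in K382Q and 10.8% ± 0.731 in K382R cells, and *Slc2a9* 2.87% ± 0.143 and 4.47% ± 0.2, so the shares of both were lower in K382Q cells although their TPM was not lower. Shares sum to the whole, so a higher share of 1 gene lowers the others.

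**Figure D3:**
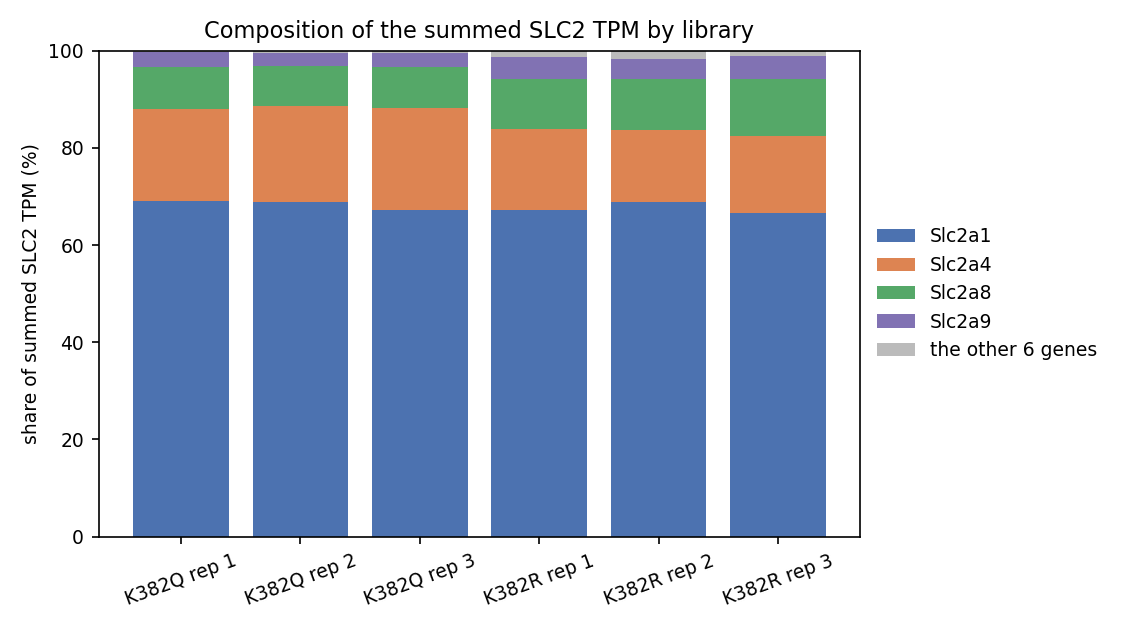
Share of each SLC2 gene in the summed TPM of the 10 genes (percent, stacked bars) in each of the 6 libraries. *Slc2a1* fills 66.6% to 69.0% in every library, and *Slc2a4* fills 19.1% to 20.9% in K382Q against 14.7% to 16.7% in K382R libraries.

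Transport by GLUT4 needs the machinery that stores and moves its vesicles. Of 18 genes of GLUT4 vesicle traffic, all tested, 3 were called higher and 7 lower, against 11.1% and 36.9% of all genes tested, and 8 were not called, with a median log2 fold change of -0.09 (all genes -0.14) that turned to 0.06 when libraries were scaled by median ratios or quantiles and was -0.06 without K382R replicate 2. *Vamp2*, the vesicle SNARE, was 50.2 ± 1.98 TPM in K382Q and 37.5 ± 0.983 in K382R cells (SD, n = 3), a log2 fold change of 0.42 (limma adjusted p = 0.000166). *Trarg1*, which encodes a GLUT4 vesicle membrane protein, was higher by 0.24 (limma adjusted p = 0.00151). Among lower genes, *Tbc1d1*, a Rab GTPase-activating protein, fell by 0.46 on the log2 scale, from 29.7 TPM in K382R to 21.4 in K382Q cells (limma adjusted p = 0.000288), and *Sort1*, the sorting receptor sortilin, fell by 0.40 from 88.7 to 67.2 (limma adjusted p = 2.79e-05). *Tbc1d4* (AS160), the Akt substrate, was 12.3 and 10.7 TPM and was not called (limma adjusted p = 0.0766). It was called higher in 4 of 16 other settings, among them scaling by median ratios (limma adjusted p 0.0106 to 0.221 over all of them). The calls of *Vamp2*, *Trarg1*, *Tbc1d1* and *Sort1* held in all 16 other settings. Under scaling by median ratios, the list had 6 calls higher and 3 lower. Over all genes, that scaling gave 3057 calls higher and 3153 lower, against 1717 and 5698 without it.

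Of 8 regulators of *Slc2a4* transcription, 3 were called higher and 3 lower, against the same 11.1% and 36.9%, and 2 were not called, with a median log2 fold change of -0.07 that turned to 0.08 under scaling by median ratios and was -0.03 without K382Q replicate 1. *Ppargc1a*, the coactivator PGC-1α, had a TPM of 5.00, 4.57 and 4.28 in K382Q and of 1.93, 1.88 and 1.53 in K382R libraries, without overlap. Its log2 fold change was 1.17 (limma adjusted p = 0.000163), and 1.01 to 1.33 over the other settings. *Klf15*, a zinc-finger factor known to activate *Slc2a4*, was 16.9 ± 0.705 against 9.94 ± 0.915 TPM (SD, n = 3), a log2 fold change of 0.74 (limma adjusted p = 0.000171). *Cebpa*, also an activator, went the other way with 179 against 315 TPM and fell by 0.81 (limma adjusted p = 3.95e-05). *Mef2a*, whose product binds the *Slc2a4* promoter in muscle, fell by 0.30 (limma adjusted p = 0.00142), whereas *Srebf1* was 253 and 250 TPM. The activators on this list thus lay on both sides. The remaining gene called higher, the histone deacetylase gene *Hdac5*, is not counted among these activators and was higher by 0.33 (limma adjusted p = 0.0075).

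Of 8 genes that control *Slc2a1* or the uptake it carries, 2 were called higher, 4 lower and 2 were not called, while 11.1% and 36.9% of all genes were called higher and lower. The median log2 fold change of -0.16 was close to that of all genes (-0.14) and moved with it, to -0.01 under scaling by median ratios. *Txnip*, whose product restrains glucose uptake through GLUT1 and GLUT4 and whose gene responds to glucose, had a TPM of 2343, 2391 and 2305 in K382Q and of 1120, 1136 and 1130 in K382R libraries. Its log2 fold change of 1.06 (limma adjusted p = 3e-07) was a DEG call in the same direction as both transporters, although it lay under a fold of 2 with quantile normalization (0.85), while its paralog *Arrdc4* was 4.73 and 4.63 TPM. *Hif1a* mRNA fell by 0.81, from 336 to 191 TPM (limma adjusted p = 7.41e-06), *Myc* by 0.54 (limma adjusted p = 4.8e-05) and *Arnt*, the partner of HIF-1α, by 0.30 (limma adjusted p = 0.000403). *Vhl*, which marks HIF-1α protein for degradation, was higher by 0.44 (limma adjusted p = 0.000131).

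HIF-1α is controlled mainly as a protein, and 8 of its targets were measured beside *Slc2a1*. All 8 were called higher in K382Q cells and 6 were DEGs, against 11.1% and 1.27% of all genes. Their median log2 fold change was 1.36, and that of all genes tested was -0.14. The list was chosen with earlier results of these data known. HIF-1α protein was not analysed here, and its part in these values and in *Slc2a1* was not tested. *Ankrd37* was 26.7 ± 2.6 against 6.04 ± 1.23 TPM (SD, n = 3), a log2 fold change of 2.07 (limma adjusted p = 1.55e-05). *Ndrg1* was higher by 1.64 (limma adjusted p = 8.51e-07), *Pdk1*, the kinase that inhibits pyruvate dehydrogenase, by 1.19 (limma adjusted p = 3.97e-07) and *Vegfa* by 0.76 (limma adjusted p = 1.47e-05). *Car9*, at 1.91 against 1.20 TPM, had the smallest value, 0.50 (limma adjusted p = 0.0265), and was called in 10 of 16 other settings (adjusted p 0.012 to 0.0845). Its call was lost under the replicate block, with no filter on low values, and without any 1 of 4 libraries (K382Q replicate 2 or 3, K382R replicate 2 or 3). *Slc2a3*, the other SLC2 gene of this response, was near 0 in every library beside them.

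**Figure D4:**
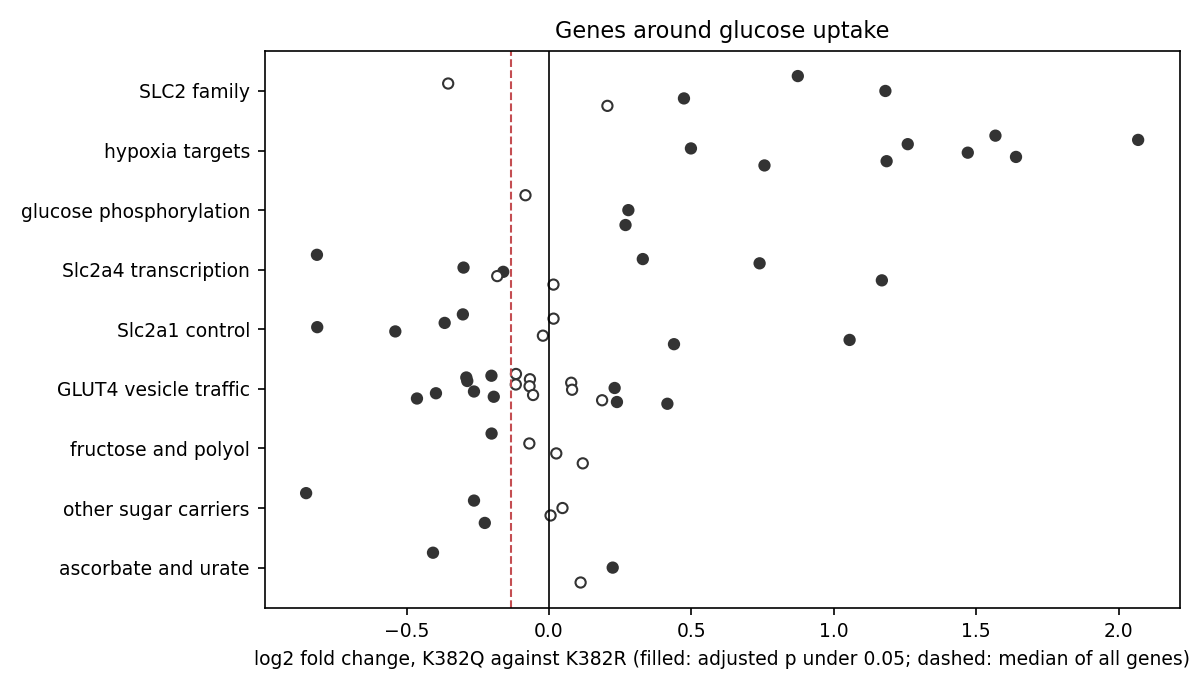
Log2 fold change of K382Q against K382R cells for each tested gene of the SLC2 family and of 8 lists around sugar transport (filled: adjusted p under 0.05; dashed line: median of all genes, -0.14). All 8 hypoxia targets lie right of 0, with a median of 1.36, and the 18 genes of GLUT4 vesicle traffic lie on both sides.

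Once inside, glucose is trapped by hexokinases. Of the genes of glucose phosphorylation, 3 were tested and 2 were called higher (11.1% of all genes were). Their median log2 fold change of 0.27 became 0.12 with no filter on low values and 0.42 under scaling by median ratios. *Hk1* was 99.2 ± 3.19 TPM in K382Q and 81.7 ± 2.08 in K382R cells, a log2 fold change of 0.28 (SD, n = 3, limma adjusted p = 0.000556). *Hk2*, the hexokinase typical of insulin-sensitive tissues, was 49.2 ± 1.56 and 40.7 ± 1.46 TPM, a log2 fold change of 0.27 (SD, n = 3, limma adjusted p = 0.00149). Both calls held in all 16 other settings. *G6pc3*, a phosphatase that acts in the opposite direction, was 31.3 and 33.1 TPM and was not called, and *Hk3* and *Hkdc1* were under the filter.

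Genes around the substrates of the lower members were set beside them. Of 5 genes of fructose and polyol metabolism, 4 were tested and 1 was called, lower like 36.9% of all genes: *Akr1b3*, aldose reductase, fell by 0.20 from 374 to 325 TPM (limma adjusted p = 0.00101), a call that was lost under scaling by median ratios. Under that scaling *Sord* and *Tkfc* were called higher instead, as they were under quantile normalization. The median of the 4 had no stable sign: it was -0.02, turned to 0.13 under scaling by median ratios and to 0.01 without K382R replicate 1, and was -0.05 without K382R replicate 2, -0.04 without K382Q replicate 2 and -0.01 without K382Q replicate 3. *Khk*, ketohexokinase, was 7.62 and 8.01 TPM and was not called. Of 12 other carriers of sugars, sugar phosphates or inositol, 5 were tested and 3 of them were called lower (36.9% of all genes), with a median of -0.23. Under scaling by median ratios 1 was called lower and the median was -0.08. Over all genes, that scaling moved higher calls from 1717 to 3057, lower calls from 5698 to 3153 and the median to 0.0032. The sugar-phosphate exchanger gene *Slc37a2* fell by 0.85 from 24.1 to 13.1 TPM (limma adjusted p = 4.11e-05), and the *myo*-inositol cotransporter gene *Slc5a3* fell by 0.23 (limma adjusted p = 0.0394), a call that held in 5 of 16 other settings (adjusted p 0.0111 to 0.572) and was lost under scaling by median ratios and without any 1 of 5 libraries (all but K382Q replicate 1). The sodium-glucose cotransporter genes *Slc5a1* and *Slc5a2* were each above 0 in 1 library. Of 5 genes of ascorbate and urate handling, 3 were tested, 1 called higher and 1 lower, against 11.1% and 36.9% of all genes. A second gene, *Xdh* (xanthine dehydrogenase), was called higher without K382Q replicate 2 and under median-ratio or quantile scaling. The median of the 3, 0.11, turned to -0.09 without the filter on low values, was 0.26 under scaling by median ratios, and was 0.06 without K382Q replicate 3, 0.07 without K382R replicate 3 and 0.19 without K382Q replicate 2. *Slc23a2*, an ascorbate transporter gene, was higher by 0.22 (limma adjusted p = 0.0112) and held in all 16 other settings. *Abcg2*, which encodes a urate exporter, was lower by 0.41 with overlapping libraries (limma adjusted p = 0.0435). It was called in 7 of 16 other settings, with adjusted p of 0.0127 to 0.208, and lost its call without any 1 of 4 libraries (K382Q replicate 1 or 3, K382R replicate 2 or 3) and under median-ratio or quantile scaling.

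Genes with the most similar pattern over the 6 libraries were taken by the root mean square difference of centred log2(TPM + 0.5) values, among 10640 genes with a mean TPM of at least 5. For *Slc2a4* these were *Lrrc39* (difference 0.0545), *Higd1a* (0.0579) and *Cfd*, the adipsin gene (0.0589), with mean TPM in K382Q and K382R cells of 12.8 and 5.57, 336 and 147, and 485 and 206. *Slc2a1* was nearest to *Mxi1* (0.04), *Gm4609* (0.0417) and the desaturase gene *Scd2* (0.0424), with log2 fold changes of 0.93, 0.83 and 0.88. *Slc2a3* varied by no more than 0.199 on this scale, and its nearest genes, *Krt19* (0.0158), *Nufip1* (0.017) and *Nabp2* (0.0173), were close to flat. These patterns are dominated by the difference between the mutants, so the likeness is a description and carries no test.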

How the data were processed

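RNA-seq libraries were aligned by the authors to GRCm39 with HISAT2 and quantified per gene with StringTie, and the gene annotation release is not given in the sources used here. The deposited TPM (a length-corrected share of transcripts, scaled to the same total in each library) was analysed. The deposited FPKM served as an alternative. The deposited coverage was given per gene as listed and, with FPKM, gave the aligned length per library. For genes with several transcripts it lies under the read depth per base, by unlike amounts. In K382Q replicate 1 it was 80.2 for *Slc2a4* at 43.5 TPM and 75.8 for *Pparg* at 1333 TPM. Counts were not analysed here, so no counting interval could be given. Entries that shared a gene ID (3 to 5 per table) were summed. Groups were taken from the sample labels.

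Mutants were compared by limma 3.58.1 (R 4.3.3, intensity trend) on log2(TPM + 0.5) over the 15426 genes that reached 0.5 TPM in 3 or more libraries, with Benjamini-Hochberg adjustment over all of them. This scale understates changes of low genes. Ratios and shares had exact permutation tests. The fit was tested on simulated data. Other steps used Python 3.11.15, pandas 2.3.3, numpy 2.4.6 and matplotlib 3.10.9. All 10 members were named, with the called genes of the largest and smallest signed log2 fold change in each list and a few more chosen after their values were seen, and the 3 genes nearest in pattern. Some results for single list genes are not reported here. Members and lists were chosen with earlier results of these data known. Alternatives covered filter, pseudocount, scaling, FPKM, variance trend, fold threshold, replicate block and leaving out each library.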

Additional observations from a re-analysis of the deposited data

How the results depend on the processing

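The higher calls of *Slc2a1*, *Slc2a4* and *Slc2a8* in K382Q cells held in all 16 other settings, with log2 fold changes of 0.83 to 1.03, 1.12 to 1.35 and 0.43 to 0.63 and limma adjusted p of at most 0.00023, 0.000251 and 0.00442. Leaving out each library in turn gave 0.83 to 0.91, 1.12 to 1.22 and 0.43 to 0.54, with 3 members called higher each time. Members called lower went from 0 to 1 with no filter on low values (*Slc2a13*) and to 1 without the variance trend (*Slc2a10*, limma adjusted p = 0.0286, range 0.0286 to 0.305 over its settings). Members that were higher DEGs went from 1 to 2 with median-ratio scaling, with quantile normalization and at a fold threshold of 1.5, *Slc2a1* being the second. Over all genes, called higher moved from 1717 to 3057 with median-ratio scaling and 2954 with quantile normalization, and called lower from 5698 to 3153 and 3241. Higher DEGs moved from 196 to 577 at a fold of 1.5, and lower DEGs from 403 to 1287 at a fold of 1.5 and to 226 with FPKM. Without 1 library, these counts ranged from 1404 to 1505, 4893 to 5521, 174 to 217 and 355 to 429. With a pseudocount of 0.1, the log2 ratio differences of *Slc2a4* to *Slc2a3* and of *Slc2a1* to *Slc2a3* were 1.52 and 1.20. Same-numbered replicates correlated at -0.0177, 0.0507 and 0.0223 in their deviations, so the numbers do not pair the cultures. With the replicate block 3 members were called higher and 0 lower, and over all genes 1600 higher and 5387 lower. Counts were not analysed, so what depth limits in the members under 0.5 TPM is known only from their coverage, which can understate read depth.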
